A study of Homo sapiens with 8 samples.

Results

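Solute carriers (SLC) are membrane proteins that move amino acids, sugars, ions, metals, vitamins and metabolites across the plasma membrane and across the membranes of mitochondria, lysosomes and the secretory pathway. Their symbols give the family as a number and the member as a letter and a number. Protein-coding genes with such a symbol were taken from the ac4C peak lists of SiHa cells, and the glucose transporters SLC2A1, SLC2A3 and SLC2A4 and the lactate transporter SLC16A1 were left out. This gave 130 SLC genes with a peak, out of 375 such symbols in RefSeq and out of 7227 named protein-coding genes with a peak.

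N4-acetylcytidine (ac4C) is a cytidine that carries an acetyl group, and NAT10 is the acetyltransferase that forms it in RNA. RNA bound by an ac4C antibody and the input RNA were sequenced from SiHa, a human papillomavirus-positive cervical squamous carcinoma line, and from its NAT10 knockout (KONAT10SiHa), with 2 libraries in each of the 4 groups SiHa Input, SiHa IP, KONAT10SiHa Input and KONAT10SiHa IP. Whether the knockout cells are 1 clone or a pool is not given in the sources used here, and no treatment is named. The question addressed here is which SLC transcripts had an ac4C peak in either population. The data are 1 peak list for each population, with no value for a single library, so the lists are described and the spread between libraries is unknown. The p, false discovery rate and fold of a peak are the authors' deposited values; they describe that peak within its own list and are no test between the populations. The list named SiHaK was read as that of the knockout cells, which no label states in words, and it is called the knockout list below.

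Of the whole lists, the SiHa list held 12924 peaks in 7291 gene identifiers and the knockout list 4557 peaks in 3726. NAT10 had 1 SiHa peak (deposited p of 5e-37) and no knockout peak. Of 9 epithelial markers, 6 had a peak in either list, beside 36% of all protein-coding genes. They were KRT5, KRT8, KRT13, KRT19 and EPCAM, and KRT18 in the knockout list alone, while KRT17, CDH1 and TP63 had none. Of 8 markers of blood, liver, endothelium and connective tissue, 6 had a peak: ALB of the liver and the globins HBA1, HBA2 and HBB in both lists, and PTPRC and PECAM1 in the knockout list alone, while CD3E and COL1A1 had none. No list gives an expression level, so the absence of a peak cannot be told apart from absence of the transcript, and fewer peaks cannot be told apart from less sequencing.

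Among the SLC genes, 111 had a SiHa peak and 42 a knockout peak. A SiHa peak was found in 29.6% of the 375 SLC genes (25 to 34.5%; all intervals are 95% exact Clopper-Pearson intervals that cover counting only), and in 29.6% of all protein-coding genes. Any peak was found in 34.7% of SLC genes (29.9 to 39.7%) and in 36% of protein-coding genes. Both shares were close to their background. A knockout peak was found in 11.2% of SLC genes (8.19 to 14.8%), and in 15% of protein-coding genes, which lies just above that interval.

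Of the 111 SLC genes with a SiHa peak, 88 had no knockout peak, 79.3% (70.5 to 86.4%), beside 70.9% of protein-coding genes. The other 23 had peaks in both lists. A further 19 SLC genes had a knockout peak alone, 45.2% of the 42 (29.8 to 61.3%), beside 42.6% of protein-coding genes. Both intervals include the background share, and no test of the difference was made. The SiHa list is the longer one. Cut to its strongest peaks at the length of the knockout list, it left 32 SLC genes in the SiHa list alone, 14 in both and 28 in the knockout list alone. The share of SiHa-peak genes with no knockout peak was then 69.6% (54.2 to 82.3%) for SLC genes and 64.2% for protein-coding genes. Among peaks with a −log10 p above 8 in both lists, it was 83.3% (70.7 to 92.1%) for SLC genes and 84% for protein-coding genes, so the excess over the background was not seen there.

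The 130 genes came from 44 of 56 SLC families, and in 20 of these families every gene with a peak was found in the SiHa list alone. Most of those 20 families had just 1 gene with a peak, and none had more than 3. The count therefore does not describe whole families. Zinc transporters were among the fuller classes, with 13 of 24 genes, and the class of vitamins, choline and organic ions was the emptiest, with 11 of 65. No class had a peak in each of its members. Genes of the SiHa list alone made up 67.7% of the 130 (58.9 to 75.6%), beside 58.2% of protein-coding genes with a peak, and they prevailed in 13 of the 14 classes. With the SiHa list cut to the length of the knockout list they prevailed in 4.

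**Figure D1:**
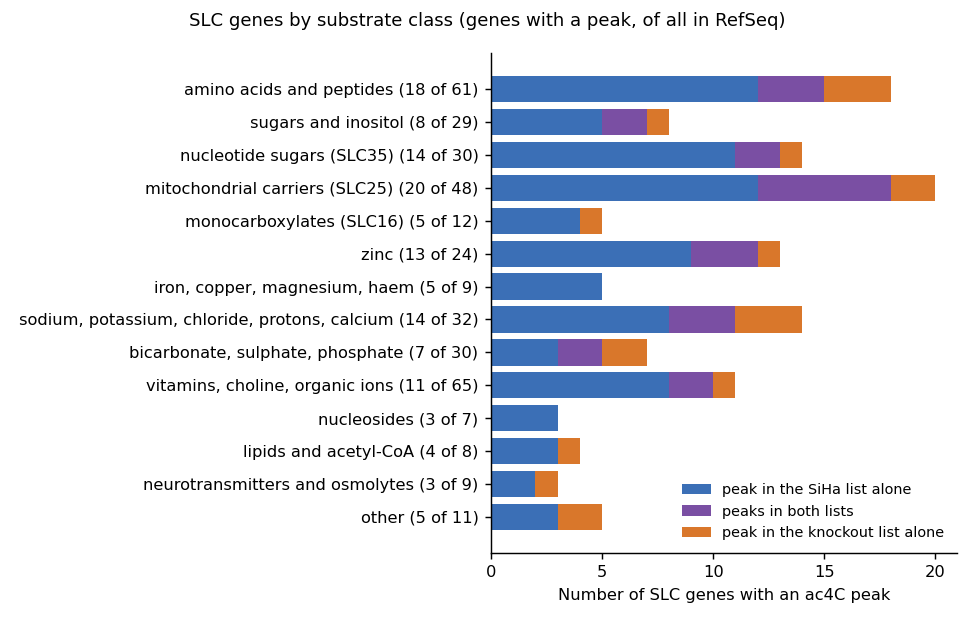
Number of SLC genes with a peak in each of 14 substrate classes, split into genes of the SiHa list alone (blue), of both lists (purple) and of the knockout list alone (orange); the brackets give genes with a peak out of all in RefSeq. Genes of the SiHa list alone made up more than the other groups together in 13 of the 14 classes (4 with the SiHa list cut to equal length), beside 58.2% of all protein-coding genes with a peak; the exception was bicarbonate, sulphate and phosphate with 3 of 7.

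Amino acid and peptide carriers with a peak numbered 18 of 61, of which 12 lay in the SiHa list alone, 3 in both and 3 in the knockout list alone. The strongest was SLC7A1, the carrier of arginine and lysine, with 5 SiHa peaks and no knockout peak. They lay together near the far end of the gene on chromosome 13, the strongest at chr13:29513959-29514228 (270 bases, p 1e-231) and the others with p from 4e-19 to 0.011. SLC43A1, a carrier of large neutral amino acids, had a single SiHa peak (p 3.2e-70, 523 bases from the gene's end). The glutamate carrier SLC1A2 (p 1.9e-09) and the glutamine carriers SLC38A1 (p 2.4e-07) and SLC38A7 (p 4.1e-06) followed. The other genes of this class in the SiHa list alone were SLC1A4, SLC6A16, SLC7A2, SLC7A11, SLC15A4, SLC43A2 and SLC66A1, with smallest p-values from 1.9e-05 to 0.0066. SLC7A11 among them is the cystine and glutamate exchanger. No peak was named for either member of family SLC3, whose proteins are the heavy chains that pair with SLC7 carriers.

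SLC1A5, the main glutamine carrier of many tumour cells, was the amino acid carrier with an overlapping pair. Its strongest SiHa peak (chr19:46775270-46777002, 506 bases in 2 blocks, p 1e-120) held the whole of its knockout peak (chr19:46775448-46775627, 180 bases, fold 12.4, p 5e-37). It had 2 weaker SiHa peaks close to the gene's start (p 7.6e-05 and 0.0066), which no knockout peak reached. SLC38A10 had 6 SiHa peaks, the most of any SLC gene, spread from its start to its end; the strongest covered 1137 bases in 2 blocks (p 1e-89). Its single knockout peak (fold 7.69, p 0.038, false discovery rate 0.53) lay 59 bases from the nearest SiHa peak without touching it. SLC38A12, also named TMEM104, had its 2 SiHa peaks near the end and its knockout peak (fold 69.2, p 6.3e-17) 9062 bases from the start, with 50487 bases between them. In the knockout list alone stood SLC38A9, the lysosomal arginine sensor that acts on mTORC1 (fold 46.1, p 3.2e-11), and SLC36A2, a proton-coupled carrier of small amino acids (fold 38.5, p 2.3e-09). The glycine carrier SLC6A9 also stood there, with a weak peak (fold 7.69, p 0.038, false discovery rate 0.53).

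The genome sequence of most peaks was not at hand, but RefSeq (GRCh38.p14) gives windows from 250 bases before to 50 bases after gene starts, and peaks of 3 SLC genes reached into such a window. These stretches are shown because they are the only peak sequence that could be read; cytidines, the base that NAT10 acetylates, are in capitals, and each runs 5′ to 3′ on the gene's strand. For SLC29A1 the touched stretch was 80 bases long and its first 30 bases are given.
SLC38A10, SiHa peak, chr17:81295258-81295281, minus strand: tgagttgggCtgaggtgtCCCtag
SLC29A1, SiHa peak, chr6:44223565-44223594, plus strand: gaatgtgCCCCggCgggagagggaagCtgC
SLC25A43, knockout peak, chrX:119399359-119399385, plus strand: CCCaggCCCgagCCaCgCggtCttCCg
The stretch in SLC38A10 held 4 cytidines in 24 bases (16.7%) and that in SLC29A1 held 7 in 30 (23.3%). The stretch in SLC25A43, from the knockout list, held 13 in 27 (48.1%). Over the first 50 bases of all windows the share was 28%. The SLC29A1 stretch lay before the start site of its window (chr6:44223595), a site inside the gene's span. Those of SLC38A10 and SLC25A43 lay after theirs. With stretches of 24 to 30 bases at unlike places, no difference between the lists can be read from these shares. A letter count does not locate ac4C within a peak.

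Carriers of sugars and inositol with a peak numbered 8 of 29. SLC37A3, of the sugar phosphate exchanger family, had the strongest peak of those in the SiHa list alone (p 1.6e-46, 421 bases, 812 bases from the gene's end) and a second peak beside it (p 1.3e-08). SLC45A4 had 3 SiHa peaks (p from 1.6e-15 to 0.027), SLC5A10 had 2 (p 3.2e-14 and 0.027), and SLC2A12 (p 2e-11) and SLC2A6 (p 2.7e-05), both of the facilitative glucose transporter family, had 1 each. SLC2A11, of the same family, had overlapping peaks: the weaker of its SiHa peaks (chr22:23882083-23882263, p 1.2e-07) shared 151 bases with its knockout peak (fold 7.18, p 3.2e-21), and its stronger SiHa peak (p 1.3e-22) ended short of it. SLC60A2, also named MFSD4B, had 1 SiHa peak of 480 bases (p 1.9e-09) that shared 121 bases with the stronger of 2 knockout peaks (folds 66.7 and 46.1). SLC5A9 was found in the knockout list alone (fold 30.8, p 1.7e-07).

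Many members of the SLC35 family carry nucleotide sugars into the Golgi and endoplasmic reticulum, where they feed glycosylation. Several members have no settled substrate, and SLC35B2 and SLC35B3 are PAPS carriers (PAPST1 and PAPST2). The class takes in the whole family, whatever the substrate. A peak was found in 14 of its 30 genes. Over all protein-coding genes with a peak, 58.2% lay in the SiHa list alone, and so did 11 of these 14. These held many of the stronger peaks: SLC35E1 had a pair on chromosome 19 (p 1e-125 and 1e-50), and SLC35B4, a carrier of UDP-sugars, had 1 peak of 450 bases (p 1.3e-71). SLC35C1, the GDP-fucose carrier, had a peak of 537 bases (p 3.2e-67) and a weak one near its start (p 0.0066). SLC35E3 had 3 peaks (p 1.3e-50, 6.3e-41 and 4.5e-05), and SLC35A1, the CMP-sialic acid carrier, had 1 (p 2.5e-49, 625 bases from the end). The others in the SiHa list alone were SLC35B2, SLC35B3, SLC35F2, SLC35F3, SLC35F6 and SLC35H1 (also named SLC35C2). Of the 2 genes with peaks in both lists, neither had an overlap: the peaks of SLC35D2 (SiHa p 5e-45, knockout fold 4.27) were 12665 bases apart and those of SLC35A4 (SiHa p 1.3e-08, knockout fold 17.9) were 714 bases apart. SLC35F4 alone had only a knockout peak (fold 15.4, p 0.00072, false discovery rate 0.16). With the SiHa list reduced in length, 8 genes of this family remained in the SiHa list alone, with 1 in both and 2 in the knockout list alone. This was the largest such count of the 14 classes, which differ in size, and it was not tested. In that setting the SiHa list alone held 32 of 74 SLC genes with a peak and 1868 of 4886 protein-coding genes with a peak.

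**Figure D2:**
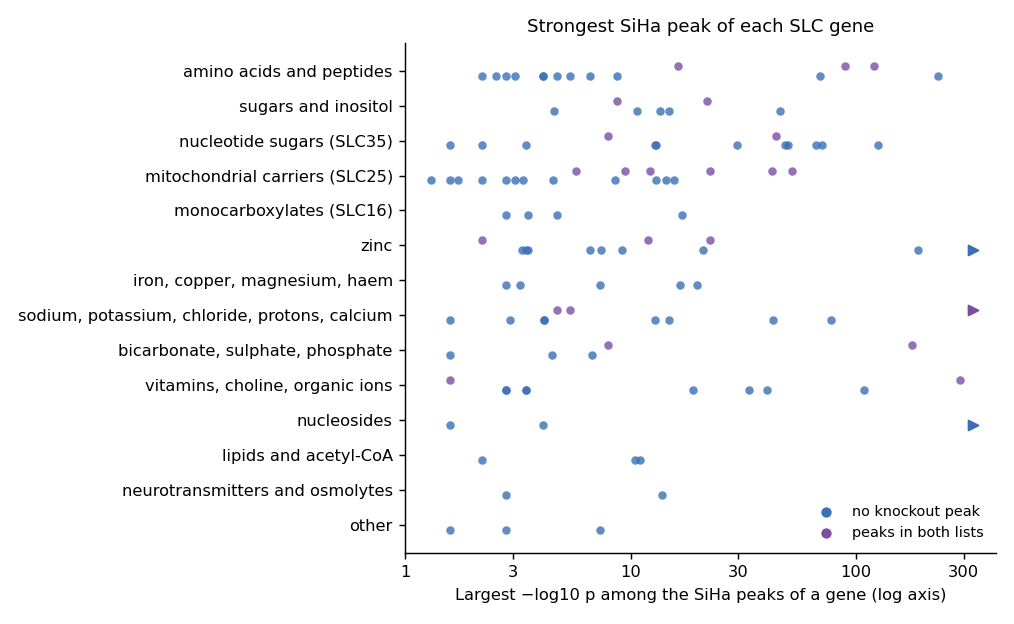
Largest −log10 p among the SiHa peaks of each SLC gene, by substrate class, on a log axis; blue points are genes with no knockout peak, purple points genes with peaks in both lists, and triangles at the right edge genes with a p listed at 0. Strong peaks with no knockout counterpart stood in several classes, among them SLC7A1 (p 1e-231), SLC35E1 (p 1e-125) and SLC39A14 (p listed at 0).

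Zinc is exported from the cytosol by the SLC30 family and imported by the SLC39 family. A peak was found in 4 of 10 SLC30 genes and 9 of 14 SLC39 genes. Of these 13, 9 lay in the SiHa list alone, beside 58.2% of protein-coding genes with a peak. SLC39A14, which takes up zinc, iron and manganese, had a peak of 748 bases in 2 blocks with a p listed at 0. SLC30A1, the zinc exporter of the plasma membrane, had 2 strong peaks that covered 570 and 270 bases (p 1e-188 and 1e-107). SLC39A10 had a peak of 660 bases (p 1.3e-21) and a weak one near its end (p 0.0028). SLC39A9 (p 7.2e-10) and SLC39A6 (p 4.5e-08) had 2 SiHa peaks each, and SLC30A5, SLC30A6, SLC39A1 and SLC39A11 had weaker ones.

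The 3 zinc carriers of both lists included the only SLC gene with a peak of the same blocks in either list. In SLC30A9, a SiHa peak (chr4:42086141-42086320, p 6.3e-07) and a knockout peak (fold 69.2, p 7.9e-33) had the same start and end, 4231 bases from the end of the gene. The gene also had a stronger SiHa peak (p 1.3e-12) and 2 further knockout peaks (folds 6.15 and 5.13) that overlapped nothing. SLC39A7, which releases zinc from the endoplasmic reticulum, had a knockout peak (chr6:33201433-33201613, fold 112, p 7.9e-54) that shared 91 bases with 1 SiHa peak (p 4e-23) and 1 base with the next (p 4.2e-08). Its other knockout peak, near the end of the gene, had a fold of 22.4. SLC39A13 had a weak SiHa peak (p 0.0066) and a knockout peak (fold 17.9) 568 bases away. In the knockout list alone stood SLC39A5, a zinc importer (fold 92.3, p 1.3e-22).

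The carriers of other metals and of haem with a peak numbered 5 of 9, each in the SiHa list alone. The share in the SiHa list alone was 67.7% over all SLC genes with a peak and 58.2% over protein-coding genes. With the SiHa list cut to the length of the knockout list, 2 of the 5 kept a peak. At a −log10 p above 8, 2 kept one. The magnesium transporters SLC41A1 (p 2.5e-20 and 7.2e-07) and SLC41A2 (p 3.2e-17 and 1.3e-16) had 2 peaks each, and those of SLC41A2 overlap each other within the list. SLC48A1, a haem transporter, had 2 peaks (p 5.4e-08 and 0.0023). The copper importer SLC31A1 had 3 weak peaks (p from 0.00058 to 0.027), and SLC40A1, the iron exporter ferroportin, had 1 (p 0.0016).

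Mitochondrial carriers of the SLC25 family exchange metabolites, nucleotides and phosphate across the inner membrane. A peak was found in 20 of 48, of which 12 lay in the SiHa list alone, 6 in both and 2 in the knockout list alone. In the SiHa list alone the strongest were SLC25A30 (p 3.2e-16) and SLC25A23 (3 peaks, the strongest with p 4e-15), a calcium-dependent carrier of ATP-Mg and phosphate. SLC25A6, an ADP/ATP carrier (p 1e-13), SLC25A28, the iron importer mitoferrin-2 (p 2.8e-09), and SLC25A32, which had 3 peaks (p from 3.1e-05 to 0.00022), came next. The remaining 7 (SLC25A11, SLC25A15, SLC25A22, SLC25A40, SLC25A44, SLC25A51 and SLC25A53) had no p below 0.00048. SLC25A39 had overlapping peaks (SiHa p 6.3e-13, knockout fold 7.08, p 1e-21), and the knockout peak lay wholly inside the SiHa peak, 206 bases from the end of the gene. SLC25A36, a carrier of pyrimidine nucleotides, had overlapping peaks that shared 31 bases (SiHa p 5e-43, knockout fold 46.8, p 1.6e-83). SLC25A3, the phosphate carrier, had a SiHa peak (p 3.2e-23) and a knockout peak near its start (fold 4.33) 7306 bases apart. SLC25A29 (SiHa p 1.6e-52, knockout fold 7.69 with a false discovery rate of 0.53) and SLC25A43 (SiHa p 4.1e-10, knockout fold 20.5) also had peaks at distant places. SLC25A1, the citrate carrier, had 2 knockout peaks. That of fold 10.3 (p 0.01, false discovery rate 0.53) was the weaker by p, beside that of fold 3.42 (p 0.00079, false discovery rate 0.011). SLC25A35 had 1 knockout peak (fold 38.5).

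SLC25A37, the mitoferrin-1 that supplies iron for haem in developing red cells, had the highest fold of any SLC peak. Its knockout peaks on chromosome 8 had folds of 272 (p 1.3e-67) and 93.3 (p 1e-109), and its 2 SiHa peaks (p 2e-06 and 1.2e-05) lay 3775 bases or more away. SLC4A1, the anion exchanger band 3 of the red cell membrane, stood in the knockout list alone (fold 84.6, p 1e-20), with a peak at the start of the gene. Such folds were not limited to these genes. SLC9A3, an exchanger known from kidney and gut, had the same fold and p as SLC4A1. The largest knockout folds of SLC27A3 (205), SLC39A7 (112) and SLC39A5 (92.3) were higher than that of SLC4A1. The peaks of fold 272 and 84.6 lay on a series of repeated values described below. Whether folds of that series share a scale with other folds is not known. Globin genes had peaks in both lists, and each SiHa globin peak of HBA1, HBA2 and HBB was overlapped by a knockout peak. The largest knockout folds were 1290 in HBB, 887 in HBA2 and 118 in HBA1. The part of globin-bearing RNA in the SLC25A37 and SLC4A1 peaks was not tested.

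Exchangers of sodium, potassium, chloride, protons and calcium with a peak numbered 14 of 32. SLC9A7, a sodium and proton exchanger of the Golgi, had the strongest peak of those in the SiHa list alone (p 2e-78, 361 bases). SLC24A1, an exchanger of sodium for calcium and potassium, had 3 peaks (p 2e-43, 2e-22 and 1.9e-07), the strongest of 630 bases. The potassium and chloride cotransporter SLC12A4 (p 1.6e-15) and the exchanger SLC9A2 (p 1.6e-13) followed, and SLC9A8, SLC9B2 and SLC12A8 had 1 peak each. SLC9D1, also named TMCO3, had the overlapping pair with the smallest SiHa p of any SLC gene: a SiHa peak of 391 bases with a p listed at 0 (chr13:113495613-113496003) shared 271 bases with a knockout peak of 421 bases (fold 15.8, p 4e-33). The knockout peaks of the pairs in SLC25A36, SLC39A7 and SLC1A5 had smaller p-values. SLC8A1, the sodium and calcium exchanger, had 3 weak SiHa peaks close together (p from 1.9e-05 to 0.0066) and a knockout peak (fold 35.9, p 2e-16) 263633 bases away. The peaks of SLC8B1, the mitochondrial member, were 18570 bases apart. In the knockout list alone, SLC9A3, an exchanger known from kidney and gut, had 1 peak (fold 84.6, p 1e-20).

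Anion carriers with a peak numbered 7 of 30. SLC20A2, a phosphate importer, had 2 strong SiHa peaks (p 1e-178 and 1.3e-31) and a weak knockout peak (fold 7.69, p 0.038, false discovery rate 0.53) 4590 bases from the nearer. SLC26A2, the sulphate carrier, had SiHa peaks with p of 1.1e-08 and 0.0066 and a knockout peak 208 bases from the weaker (fold 5.13, false discovery rate 0.23). SLC20A1, the other phosphate importer of the family, had a knockout peak alone (fold 10.3, p 0.00019). The bicarbonate carriers SLC4A2 (p 1.9e-07), SLC4A7 (p 3.3e-05) and SLC4A4 (p 0.027) lay in the SiHa list alone.

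In the class of vitamins, choline and organic ions, SLC23A2, a vitamin C transporter, had the smallest p listed above 0 among all SLC peaks (p 1e-289) and a weak knockout peak (fold 12.8, false discovery rate 0.52) 747 bases away. SLC19A1, the reduced folate carrier, had 4 SiHa peaks and no knockout peak. Its strongest (p 1e-109) was the widest of all SLC peaks, with 1228 bases in 3 blocks. SLC17A9, the vesicular nucleotide carrier (p 5e-41), SLC22A3, an organic cation carrier (p 4e-34), SLC10A3 (p 1.3e-19) and SLC17A1 (p 0.00036) also lay in the SiHa list alone, with SLC5A6, SLC46A1 and SLC47A1. SLC22A5, the carnitine transporter, went the other way, with a weak SiHa peak (p 0.027) and 2 knockout peaks, the stronger with p of 5e-82 and a fold of 14.6. SLC10A7 had a knockout peak alone (fold 35.9, p 9.8e-09).

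The smaller classes held 3 to 5 genes with a peak each. Of the nucleoside carriers, SLC29A3 had a peak of 418 bases with a p listed at 0, and SLC29A1 (p 8.3e-05) and SLC29A4 (2 peaks of p 0.027) had weak ones. Of the monocarboxylate carriers, SLC16A7 (p 1.3e-17), SLC16A6 (p 1.9e-05), SLC16A13 (p 0.00031) and SLC16A9 (p 0.0016) had SiHa peaks alone, and SLC16A3, the lactate exporter of glycolytic cells, a weak knockout peak alone (fold 2.85, p 0.0039, false discovery rate 0.049). Among carriers of lipids and acetyl-CoA, SLC33A1, which brings acetyl-CoA into the endoplasmic reticulum, had 2 SiHa peaks (p 1e-11 and 0.0016), and the fatty acid transport proteins SLC27A4 (p 3.2e-11) and SLC27A1 (p 0.0066) had 1 each. SLC27A3, of the same family, was found in the knockout list alone (fold 205, p 7.9e-51). The taurine carrier SLC6A6 had 3 SiHa peaks (p 1.6e-14, 1e-11 and 0.0066), and the creatine carrier SLC6A8 had 1 (p 0.0016). SLC6A12, the betaine carrier, had a weak knockout peak alone (fold 7.69, p 0.038, false discovery rate 0.53). Of the remaining carriers, SLC71A2 (p 5e-08), SLC61A1 (p 0.0016) and SLC67A1 (p 0.027) had SiHa peaks alone. SLC75A1 (fold 48.7) and SLC68A1 (fold 10.3, p 0.01, false discovery rate 0.53) had knockout peaks alone.

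Of the 23 genes found in both lists, 8 (34.8%, 16.4 to 57.3%) had peaks of the lists that overlapped by at least 1 base on the same strand, near the share of 39.2% of protein-coding genes with peaks in both lists. They were SLC1A5, SLC2A11, SLC9D1, SLC25A36, SLC25A39, SLC30A9, SLC39A7 and SLC60A2. In the other 15 the nearest peaks were between 59 and 263633 bases apart along the genome, with a median of 4590 bases, introns included, and 6 were closer than 1 kb. By peaks, 9 of 177 SiHa SLC peaks were overlapped, 5.08% (2.35 to 9.43%), beside 6.95% of SiHa peaks of protein-coding genes. Of 52 knockout SLC peaks, 8 were overlapped, 15.4% (6.88 to 28.1%), beside 20.3%. The overlapped SiHa SLC peaks had a median −log10 p of 12.2 and the others one of 4.54.

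**Figure D3:**
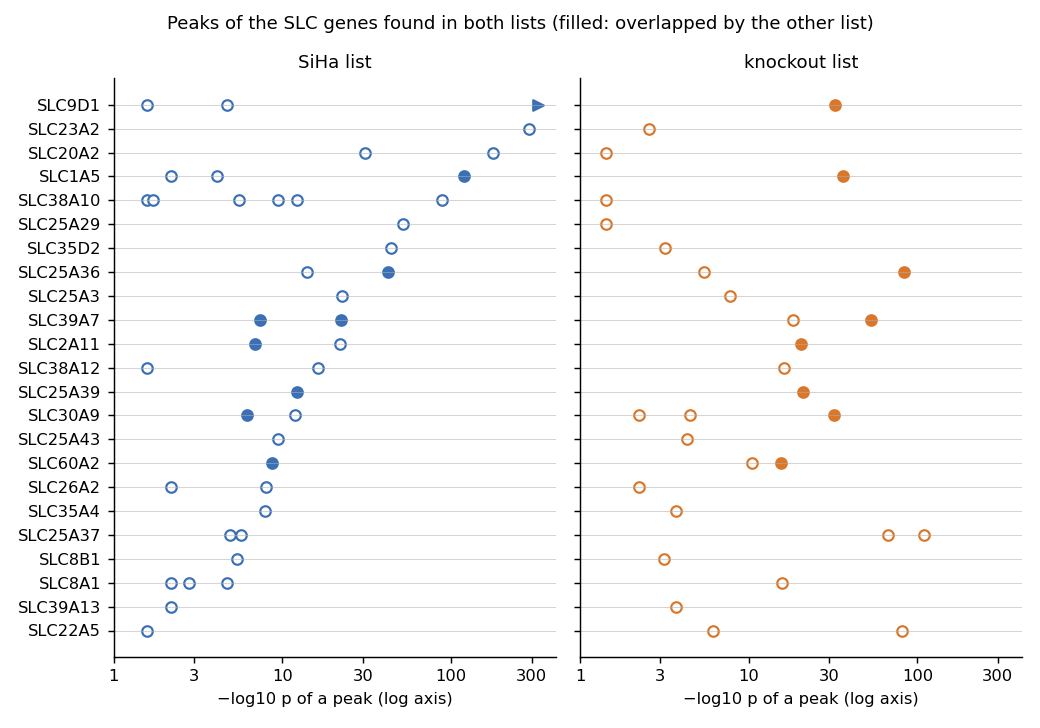
−log10 p (log axis) of every peak of the 23 SLC genes found in both lists, with SiHa peaks on the left and knockout peaks on the right; filled points are peaks overlapped by a peak of the other list, and the triangle is the SiHa peak of SLC9D1 with a p listed at 0. Filled points stand in 8 genes, and the strongest SiHa peaks of SLC23A2 and SLC20A2 are open.

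Genes in both lists had stronger SiHa peaks than genes of the SiHa list alone: the median over genes of the largest −log10 p was 16.2 in the 23 and 6 in the 88. Over all protein-coding genes the same medians were 16.6 and 8.6. The 88 genes included both very strong and very weak peaks, since 38 of them (43.2%) had a −log10 p above 8 and 30 (34.1%) had only p-values that at least 100 SiHa peaks share. Over all protein-coding genes of the SiHa list alone these shares were 52.4% and 30.5%. Such shared p-values stood at 36.7% of SiHa SLC peaks, beside 35.9% of protein-coding SiHa peaks.

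The knockout list holds a series of repeated values, in which the fold is a whole multiple (3 or more) of 2.56 and the p is the largest listed at that fold. On this series lay 29 of the 52 knockout SLC peaks, 55.8% (41.3 to 69.5%), beside 43.5% of knockout peaks of protein-coding genes. Of the 29, 1 was overlapped by a SiHa peak, that of SLC60A2, and of the 23 peaks off the series 7 were. These shares were 3.45% and 30.4%, beside 13% and 25.9% of protein-coding knockout peaks on and off the series. Of the 19 SLC genes with a knockout peak alone, 15 had it only on the series (78.9%, 54.4 to 93.9%), beside 48.6% of protein-coding genes with a knockout peak alone. These included SLC4A1, SLC9A3, SLC27A3, SLC38A9 and SLC39A5. SLC16A3, SLC20A1 and SLC25A1 were among the exceptions. In 5 of the 19 (26.3%) no peak had a false discovery rate of 0.05 or less, beside 25.1%. Whether folds on and off the series share a scale is not known.

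**Figure D4:**
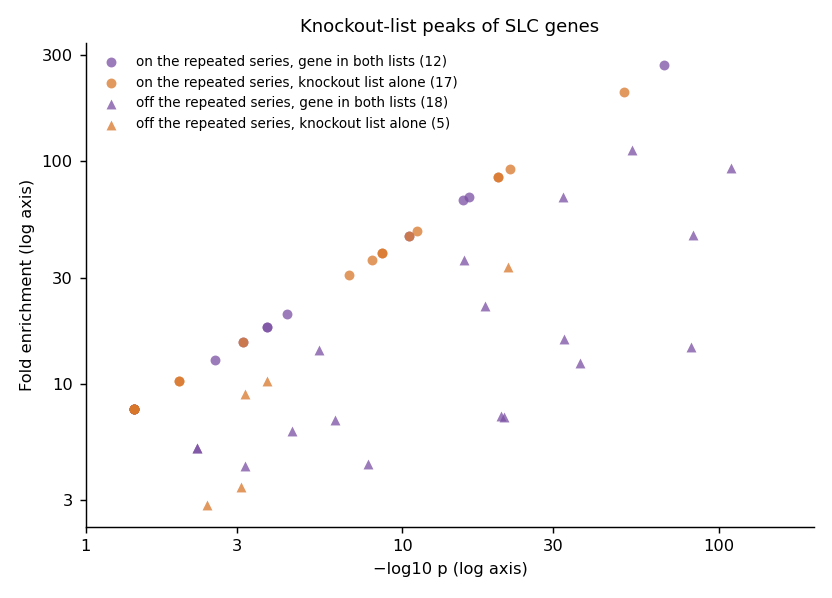
Fold enrichment against −log10 p of the 52 knockout-list peaks of SLC genes, both on log axes; circles lie on the repeated series and triangles off it, and colour marks genes of both lists (purple) or of the knockout list alone (orange). The circles fall on a single line, from 7.69 to 272 in fold, and hold 17 of the 22 peaks of genes found in the knockout list alone (77.3%, beside 50.3% of such peaks over all protein-coding genes).

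SLC peaks resembled other peaks in width. The median was 181 bases in the SiHa list for SLC and for protein-coding genes and 180 in the knockout list for both. Wide SLC peaks of at least 400 bases numbered 21 of 177 in the SiHa list and 1 of 52 in the knockout list, the latter in SLC9D1. The matching count over protein-coding peaks was not made. The upper quartile of width in the SiHa list was 270 bases for SLC and 298 for protein-coding peaks. In the knockout list it was 181 for both, so the difference in width between the lists was not particular to SLC genes. Median −log10 p in the SiHa list was 4.72 for SLC peaks and 6.44 for protein-coding peaks, and in the knockout list 7.28 and 5.55. SLC genes with a SiHa peak had 1.59 peaks each, beside 1.84. In 13 of the 111 there were 3 or more, beside 20% of protein-coding genes with a SiHa peak.

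SiHa peaks of SLC genes lay mostly towards the far end of the gene. The middle of the peak stood at a median of 82.7% of the gene's span, beside 84.7% for protein-coding genes, and 71 of 177 lay between 90 and 100% of it. Within 1 kb of the gene's end lay 29 (16.4%, 11.3 to 22.7%), beside 16.6%. In the knockout list the median position was 80.2%, beside 77.6%. In that list 10 of 52 SLC peaks (19.2%, 9.63 to 32.5%) lay within 1 kb of the gene's start, beside 7.27%, and 13 (25%, 14 to 38.9%) within 1 kb of its end, beside 13.1%. The peaks near a start included those of SLC4A1, SLC20A2, SLC25A1, SLC25A3, SLC25A29, SLC25A43, SLC38A10, SLC39A7 and SLC75A1, and 6 of the 10 were on the repeated series. A window of 1 kb is a larger part of a short gene, and SLC25A1, SLC39A7 and SLC75A1 span 3156, 3571 and 4259 bases. The shares within 1 kb were not adjusted for gene length. Measured in bases, the median distance from the start was shorter for SLC than for protein-coding peaks, 14452 against 25298 in the knockout list and 26374 against 28588 in the SiHa list.

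**Figure D5:**
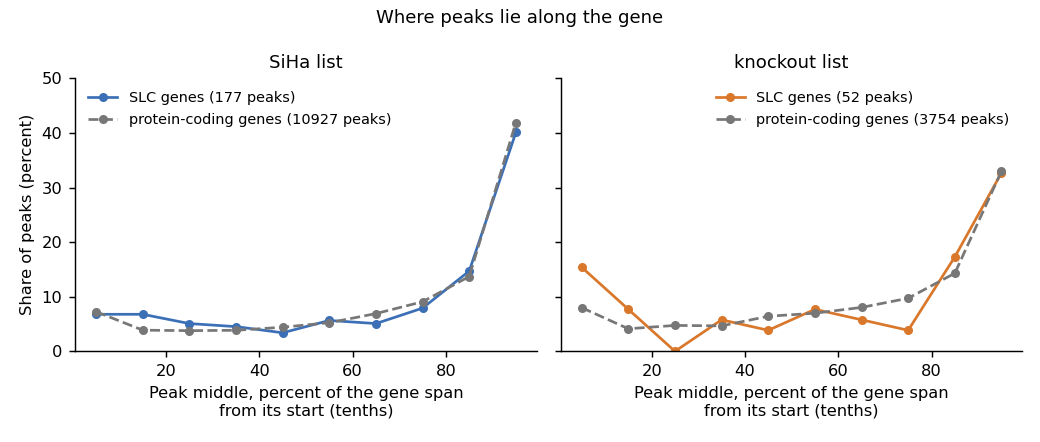
Share of peaks in each step of 10% of the gene's span from its start to its end, for SLC genes (solid) and all protein-coding genes (dashed, grey), with the SiHa list on the left and the knockout list on the right. In the SiHa list the curves nearly coincide, with 40.1% and 41.9% in the last step; in the knockout list 15.4% of SLC peaks, 8 of 52, lie in the first step beside 7.99%.

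Other membrane transport genes were set beside the SLC genes. Of 41 ABC transporters, which pump substrates with the energy of ATP, 10 had a SiHa peak, and 4 of these had no knockout peak (40%, 12.2 to 73.8%). ABCC1 had 4 SiHa peaks (p down to 1e-175) and a weak knockout peak, ABCA3 had overlapping peaks, and ABCB1 and ABCA1 lay in the SiHa list alone. Of 40 P-type ATPases, 12 had a SiHa peak and 9 of these no knockout peak (75%, 42.8 to 94.5%), among them ATP1B1 (p 2e-23). A further 7 P-type ATPases had a knockout peak alone, among them the calcium pump ATP2A2 and 4 ATP13A genes. Of all protein-coding genes, 29.6% had a SiHa peak, and 70.9% of those had no knockout peak, a share that both intervals include. With so few genes, the shares of ABC transporters and P-type ATPases span wide intervals. That of SLC genes (79.3%) was not compared with them by a test.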

How the data were processed

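The members and gene lists were chosen with earlier results of these data known. Antibody-bound and input RNA of 8 libraries had been made with a stranded mRNA kit, per the labels' protocols, and FastQC 0.11.7 and GRCh38 are named in the submitters' processing notes; the aligner, peak caller and annotation were not given in the sources used here, and depth is unknown. The authors deposited a p-value for each peak and, for the knockout list, a fold enrichment ratio of unstated reference with log10 scores of p and false discovery rate. These rank peaks within a list only.

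From the lists, 1 repeated line and 5 peaks off the chromosomes (3 and 2) were dropped. Identifiers are not paired with symbols in the files, so each took the name of the RefSeq span that held at least 90% of its peak bases on its strand; 7914 of 9046 (87.5%) were named. Where several spans remained, those already named, those of unknown strand, LOC symbols and readthrough genes gave way, which added 6 SLC genes. For 27 of the 130 the table gives no strand, so an antisense gene could have taken the name. An identifier in SLC5A3 and MRPS6 was not decided. Values of some counted genes are not reported here. Positions use gene spans, introns included. Genes were named by a fixed rule: those in both lists, with 3 or more SiHa or 2 or more knockout peaks, and the strongest 5 (SiHa alone) and 4 (knockout alone) of each class; the others may be listed by name. Python 3.11.15, pandas 2.3.3 and scipy 1.17.1 were used; naming and overlap were tested on simulated data. Alternatives were stricter p-value and false discovery rate limits, list length, the repeated series, overlap and naming.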

Additional observations from a re-analysis of the deposited data

How the results depend on the processing

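No paired analysis was possible because the lists hold no replicate values, and leaving out a replicate could not be run for the same reason. The share of SiHa-peak SLC genes without a knockout peak was 79.3% (protein-coding 70.9%), and it was 69.6% (64.2%) with the SiHa list reduced to the length of the knockout list (32 genes in the SiHa list alone, 14 in both), 88.3% (80.8%) without the repeated series (13 genes in both, 4 in the knockout list alone) and 92.8% (88.6%) where only overlapping peaks counted as shared (8 in both). With peaks of −log10 p above 8, 45 genes lay in the SiHa list alone and 9 in both, a share of 83.3% against 84% of protein-coding genes; without repeated values in either list, a choice made after seeing the data, 11 lay in both and 6 in the knockout list alone. The other naming rules and the false discovery rate limit left this share within its interval. With reciprocal overlap of 50%, 2.26% of SiHa SLC peaks were overlapped, and without the repeated series 30.4% of knockout SLC peaks. The median span of SLC peaks minus that of protein-coding peaks was -30 bases (SiHa) and -0.5 (knockout), against 0 for block bases, and the knockout difference in median −log10 p was 7.83 at a false discovery rate of 0.05 or less, against 1.73. Genes of the SiHa list alone prevailed in 4 substrate classes with the reduced list, against 13. The ratio of median knockout positions, SLC over protein-coding, was 1.03 as a share of the span and reversed to 0.571 in bases; the cause was not tested.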

Other observations

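Of the partners and regulators of carriers, BSG and EMB, which escort monocarboxylate carriers to the membrane, had SiHa peaks alone (p 1.5e-10 and 0.027). ATF4, the transcription factor of the amino acid response, had 1 SiHa peak (p 6.3e-20) and HIF1A, the hypoxia factor, had 3 (p down to 3.2e-57), and neither had a knockout peak. MYC and NFE2L2 had overlapping peaks in both lists, with knockout folds of 23.9 and 34.2. MTF1, the zinc-responsive transcription factor, had 1 peak in each list, at different places (SiHa p 1.7e-08, knockout fold 4.1). MTOR (fold 5.41) and SREBF2 (fold 23.1) had a knockout peak alone.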
